A study of Mus musculus with 4 samples.

Results

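Messenger RNA of 6 transcription factors of the epithelial-mesenchymal transition (EMT) and of 4 classical cadherins was followed across 4 RNA sequencing libraries of mouse mammary cells. The factors were Snai1, Snai2, Twist1, Twist2, Zeb1 and Zeb2, and the cadherins were Cdh1, Cdh2, Cdh3 and Cdh11. They were chosen by name, as the rows of the deposited count table whose identifiers belong to these genes in GENCODE M21. All 10 were found among 54393 gene identifiers, and all 10 passed a filter on low counts that left 18917 genes for testing.

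The libraries came from glands of wild-type (WT) mice and of mice with a conditional knockout (cKO) of ΔNp63, labelled Dnp63 cKO, the short p63 isoform of basal epithelial cells. The protocols name iK14-Cre; DNp63 f/f mice for all 4 libraries, that is an inducible Cre under keratin 14 control and floxed DNp63 alleles, and do not say which of these alleles the WT animals carried. All 4 libraries were labelled with tamoxifen induction at 4 weeks of age, at 1.5 mg/ml, and glands were taken 10 days or 5 weeks later. There was 1 library per genotype and time point, so n = 2 per genotype. Gland ages of 5 weeks and 35 weeks also stand in the labels and were not used, because the older age does not follow from the stated times. Cells were freed with collagenase and hyaluronidase, those with CD45, CD31 or Ter119 were sorted away, and 100000 cells were used per library. Keratin 14 is active in basal cells, so Cre activity is directed to that compartment, while each library holds RNA of all cells left after the sort. WT and cKO libraries cannot share an animal, but the labels do not say whether the 2 libraries of a genotype came from separate animals. Without a second library of any genotype and time point, spread between animals cannot be told from technical spread. In the main fit, with time point and genotype as terms, 1 residual degree of freedom is left. Its p-values rest on how far the genotype difference changed between time points, and on variance shared over all tested genes. They do not measure a spread between replicate libraries.

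Classical cadherins are calcium-dependent adhesion proteins that bind like molecules on neighbouring cells and hold the actin cytoskeleton through catenins. E-cadherin (Cdh1) joins epithelial cells, in the mammary gland mainly luminal ones, and P-cadherin (Cdh3) marks the basal layer, whereas N-cadherin (Cdh2) and cadherin 11 (Cdh11) are known from mesenchymal cells. Snail and Zeb proteins are zinc-finger repressors that bind E-boxes in epithelial promoters, Cdh1 included, and Twist proteins are basic helix-loop-helix factors. Zeb1 and Zeb2 messages are in turn repressed by the miR-200 microRNA family, which is abundant in epithelia, and fibroblasts express Zeb and Twist factors without any transition.

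The library labels call the cells mammary epithelial, and the markers show a mixture. Summed fibroblast markers (15 genes) stood between 28520 and 52925 CPM (counts per 1000000, scaled to library size), against 7915 to 9910 CPM for 13 luminal markers. Summed basal markers (10 genes) were 4462 CPM for WT and 1376 for cKO at the earlier time, then 18204 for WT and 1362 for cKO. Trp63, the targeted gene, counted over all isoforms, had 46.8 and 161 CPM (WT) against 12.8 and 25.5 CPM (cKO), the direction that the labels give. Total counts ran from 31714181 to 79122250 per library, with the highest total in WT at 5 weeks, and 27232 to 29617 genes were detected. The cKO library at 10 days stood apart in adipocyte genes: Cfd had 341 CPM there and 1.45 to 2.12 in the other 3, and Plin4 had 184 and 16.3 to 38.7. Without that library, and with no time term, the genotype difference was -2.11 for Cdh3 and 1.30 for Zeb2 as log2 fold changes. With a single cKO library left, these values are a description. A lower level of a gene in such bulk RNA can come from fewer cells of a type or from less RNA per cell, and these cannot be told apart here.

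Cdh3 had the widest difference between genotypes of the 10 genes, and Zeb2 the next. In the fit over all libraries Cdh3 stood 4.40-fold lower in cKO and Zeb2 2.10-fold higher, each in the same direction at both time points. Twist1, Twist2, Zeb1 and Cdh2 were also higher in both cKO libraries than in both WT libraries, and Cdh1 was lower in both. The levels of Snai1, Snai2 and Cdh11 overlapped between genotypes. In edgeR's quasi-likelihood test, with time point as a term and adjustment over all tested genes, 0 of the 10 genes passed the threshold of 0.05, where 0.0581% of all tested genes did. At an unadjusted p under 0.05 there were 3 of 10 (Cdh3, Zeb2 and Twist1), beside 11.6% of all tested genes. DESeq2 called 2 of the 10, Cdh3 and Zeb2, beside 2.71% of all tested genes, and limma-voom called 0, beside 0.153%. The same 3 genes had an unadjusted p under 0.05 in each, beside 10.1% of all tested genes in DESeq2 and 12.7% in limma-voom.

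The counts of genes with no overlap are read against a high background. With 2 libraries per genotype, both cKO libraries lay above both WT libraries in 22.6% of all tested genes and below them in 23.3%. Among the 10 genes, 5 lay above (Twist1, Twist2, Zeb1, Zeb2 and Cdh2) and 2 below (Cdh1 and Cdh3), 7 in all beside 45.9%. The median log2 fold change of the 10 genes was 0.48, and that of all tested genes was -0.01.

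**Figure D1:**
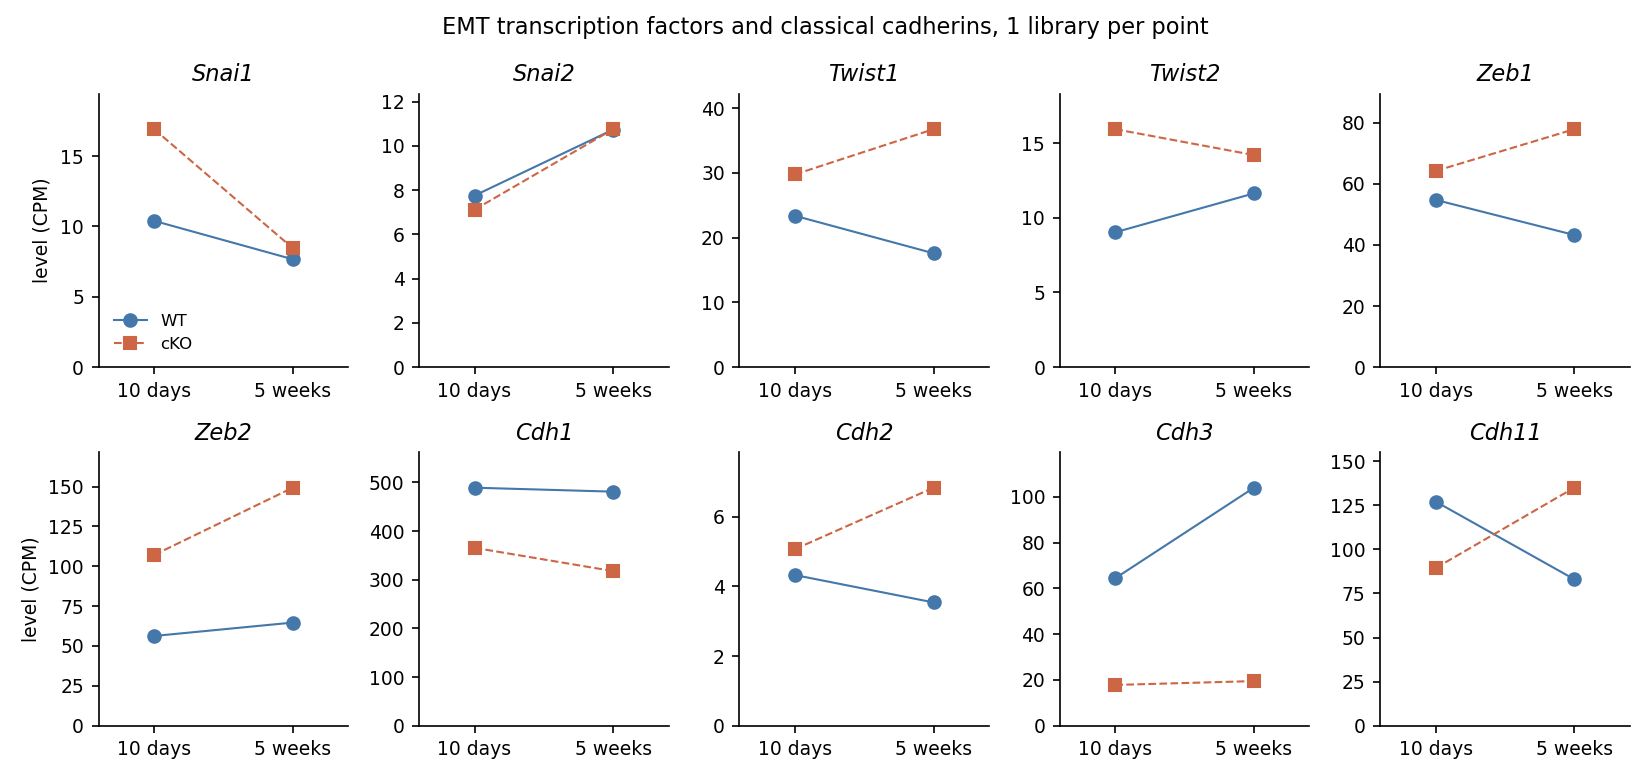
Level of each of the 10 genes in CPM (vertical axis, starting at 0, with a separate scale per gene) in the 4 libraries, 1 point per library, by genotype and time after tamoxifen. Cdh3 is low in both cKO libraries (17.8 and 19.5 CPM against 64.4 and 104 in WT), Zeb2 is high in both (107 and 149 against 56.3 and 64.7), and Snai1, Snai2 and Cdh11 overlap between genotypes.

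P-cadherin and E-cadherin are neighbours in the genome, and their levels differed by genotype to unlike extents. Cdh3 (ENSMUSG00000061048.8) lies at chr8:106510891-106557297 and Cdh1 (ENSMUSG00000000303.12) at chr8:106603351-106670246 of GRCm38, both on the plus strand with 46053 bases between them. Cdh3 had 2218 counts in WT and 565 in cKO at 10 days, and 7988 in WT and 661 in cKO at 5 weeks. These correspond to 64.4, 17.8, 104 and 19.5 CPM in the same order. Both cKO libraries were low and close to each other, while WT at 5 weeks was the highest. This is a log2 fold change of -2.14 (SE 0.238, n = 2 libraries each), with an unadjusted p of 0.000161 and an adjusted p of 0.0949 in edgeR, and Cdh3 ranked 32 of 18917 genes by p. WT exceeded cKO 3.61-fold at 10 days and 5.33-fold at 5 weeks. DESeq2 gave an adjusted p of 7.41e-09, so the call depended on the tool while the direction was shared. With each library left out in turn and no time term, the difference of Cdh3 ran from -2.48 to -1.79. It passed the threshold without the WT library at 10 days, with an adjusted p of 0.0307 (0.317% of all tested genes did), and with no filter on low counts, with an adjusted p of 1.91e-14 (3.71%).

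Basal markers were low in the same libraries as Cdh3. Of 10 basal markers, 8 were lower in both cKO libraries and 1 was higher in both, beside 23.3% and 22.6% of all tested genes. None of these markers was at 0 in any library, and their part in the Cdh3 difference was not tested. Relative to Trp63, the per-length level of Cdh3 (counts per kilobase of transcript) was 1.69 in WT and 1.69 in cKO at 10 days, and 0.793 in WT and 0.935 in cKO at 5 weeks. That ratio was close between genotypes at each time point and lower at 5 weeks. Relative to Krt5, the keratin partner of Krt14, the Cdh3 ratio was 0.0317 in WT and 0.0725 in cKO at 10 days, and 0.00666 and 0.0414 at 5 weeks. Relative to Krt14 (1637 and 6510 CPM in WT, 411 and 321 in cKO) it was 0.0152 and 0.0167, then 0.00618 and 0.0235. Cdh3 was thus higher per unit of either keratin in cKO, by a small margin for Krt14 at 10 days, and Krt5 itself had 1018 and 7826 CPM in WT and only 123 and 236 in cKO. Relative to Krt17, the WT ratios of 0.0334 (10 days) and 0.0502 (5 weeks) exceeded the cKO ratios of 0.0212 and 0.0363. Squamous epidermal markers were also high in WT, summing to 824 and 4107 CPM compared with 127 and 179 in cKO. Of 11 tested, 10 were lower in both cKO libraries, beside 23.3% of all tested genes. Flg was the marker at 0 in some library, and the part of squamous tissue in the Cdh3 level was not tested.

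Cdh1 differed far less than Cdh3. It had 16851 counts in WT and 11615 in cKO at 10 days, and 36972 and 10787 at 5 weeks. In CPM these were 489, 366, 481 and 318, so the WT libraries were nearly level and both cKO libraries were below them. Its log2 fold change was -0.51 (SE 0.248), 1.42-fold lower, with an adjusted p of 0.504 in edgeR and an unadjusted p of 0.0893. The luminal markers did not share this pattern: 0 of 13 were lower in both cKO libraries and 5 were higher. The shares of all tested genes were 23.3% and 22.6%, and none of the luminal markers was at 0. Per unit of Epcam, an adhesion protein of epithelial cells, the per-length level of Cdh1 was 0.268 in WT and 0.219 in cKO at 10 days, and 0.385 and 0.256 at 5 weeks. Per unit of the luminal keratin gene Krt8 it was 0.0701 and 0.0471 at 10 days, and 0.0862 and 0.0586 at 5 weeks. Both ratios were lower in cKO at each time point, as descriptions from 1 library per genotype and time. The ratio of Cdh1 to Cdh3 was 7.52 in WT and 20.3 in cKO at 10 days, and 4.58 and 16.1 at 5 weeks.

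Cdh11 and Cdh2, the cadherins known from mesenchyme, had unlike patterns. Cdh11 (ENSMUSG00000031673.6, chr8:102632095-102785642, minus strand) had 4378 counts in WT and 2840 in cKO at 10 days, and 6380 and 4582 at 5 weeks. In CPM the values were 127, 89.4, 83.0 and 135, so cKO was below WT at 10 days and above it at 5 weeks. The log2 ratio of cKO over WT was -0.51 at 10 days and 0.70 at 5 weeks, and the fit over both gave 0.10 (SE 0.341, adjusted p = 0.941). Per unit of Pdgfra, a receptor of fibroblasts, the per-length level of Cdh11 was 0.406, 0.263, 0.404 and 0.388 in the order WT and cKO at 10 days, then WT and cKO at 5 weeks. By that ratio the cKO library at 10 days stood low and the other 3 libraries were alike. Per unit of the fibrillar collagen gene Col3a1 the order turned, with 0.00927, 0.0120, 0.0116 and 0.00677, so there cKO was the highest library at 10 days and the lowest at 5 weeks.

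Cdh2, on chromosome 18, was the scarcest of the 10 genes. It had 149 counts in WT and 161 in cKO at 10 days, and 272 and 232 at 5 weeks, or 4.33, 5.07, 3.54 and 6.83 CPM. Both cKO libraries were above both WT libraries, by a small margin at 10 days, where the 95% counting interval of the log2 ratio (-0.10 to 0.55) included 0. The log2 fold change was 0.59 (SE 0.371, adjusted p = 0.601). Counting intervals here cover counting error only.

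As shares of the summed per-length level of the 4 cadherins, Cdh1 made up 70.7% to 79.8% in the 4 libraries. Cdh3 made up 9.89% in WT and 3.92% in cKO at 10 days, and 16.0% in WT and 4.38% in cKO at 5 weeks. Cdh11 took 15.2%, 15.3%, 9.95% and 23.6% in the same order, and Cdh2 0.601%, 1.01%, 0.495% and 1.39%. E-cadherin was therefore the main classical cadherin of the 4 in every library, with the second place held by Cdh11 in 3 libraries and by Cdh3 in WT at 5 weeks. With merged exons as length, Cdh3 was second in WT at 10 days as well (10.8% against 10.5% for Cdh11). The summed level itself was 359 and 310 per-length units in WT and 247 and 242 in cKO.

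**Figure D2:**
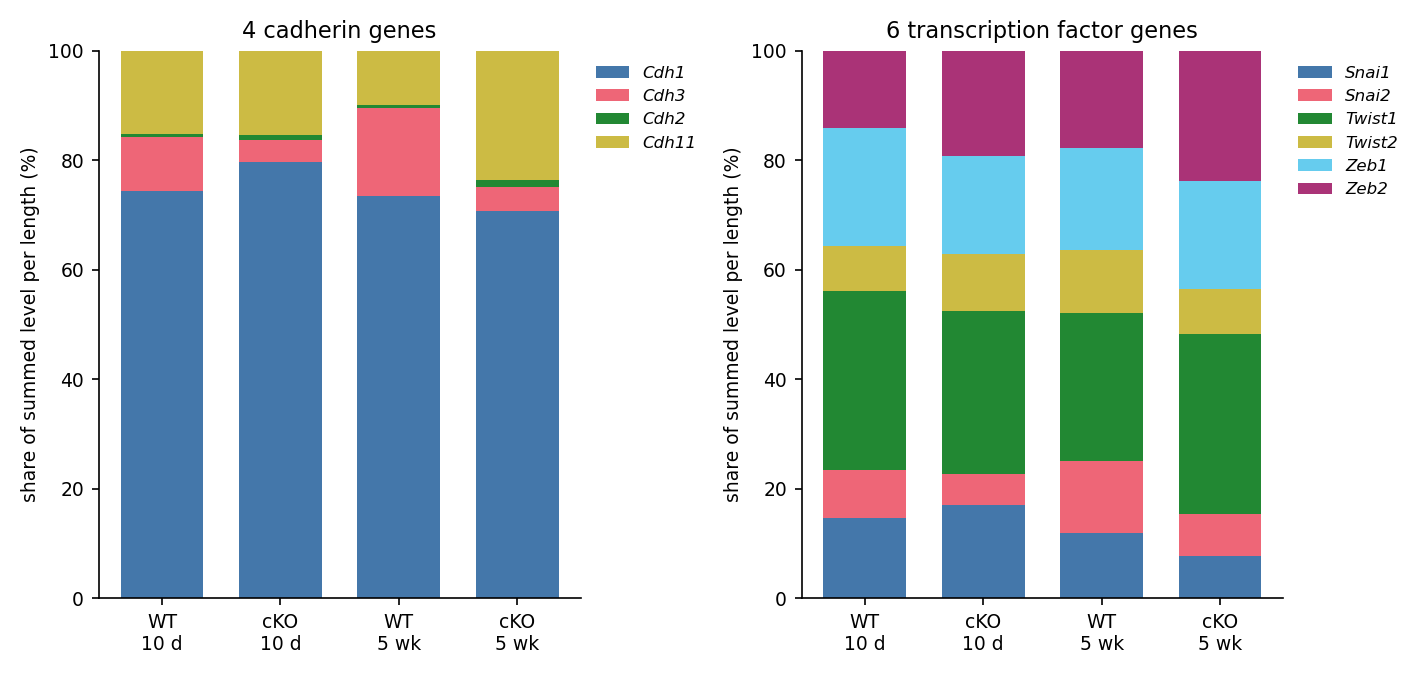
Shares of the summed per-length level, in percent (bars from 0 to 100), taken by each of the 4 cadherins and each of the 6 transcription factors in each library, 1 bar per library. Cdh1 fills 70.7% to 79.8% of every cadherin bar, and the Cdh3 segment takes 9.89% and 16.0% in WT and 3.92% and 4.38% in cKO.

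Zeb2 (ENSMUSG00000026872.17, chr2:44983632-45117395, minus strand) had the strongest genotype difference of the 6 factors. It had 1938 counts in WT and 3402 in cKO at 10 days, and 4970 and 5068 at 5 weeks. In CPM these were 56.3, 107, 64.7 and 149, so both cKO libraries lay well above both WT libraries. The log2 fold change was 1.07 (SE 0.199), with an unadjusted p of 0.00215 and an adjusted p of 0.217 in edgeR. DESeq2 gave an adjusted p of 0.0119, and the unfiltered edgeR fit gave 0.00105. As for Cdh3, the call depended on the tool. Its log2 ratio of cKO over WT reached 0.93 at 10 days, then 1.21. With each library left out in turn it ran from 0.80 to 1.30, and no such fit called it (adjusted p 0.234 to 0.770).

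Zeb1, on chromosome 18, is the relative of Zeb2 and showed a smaller difference. It had 1885 counts in WT and 2039 in cKO at 10 days, and 3323 and 2643 at 5 weeks, or 54.7, 64.2, 43.2 and 77.9 CPM. The groups did not overlap, with the cKO library at 5 weeks the highest. The fit gave a log2 fold change of 0.54 (SE 0.232, unadjusted p = 0.0625, adjusted p = 0.456), from a log2 ratio of 0.23 at 10 days and 0.85 at 5 weeks. The ratio of Zeb2 to Zeb1 per length was 0.654 in WT and 1.06 in cKO at 10 days, and 0.951 and 1.22 at 5 weeks. Zeb2 therefore stood higher relative to Zeb1 in cKO at each time point.

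Many stromal and blood cell markers were higher in the same libraries as Zeb2, less evenly for fibroblasts at 10 days. Both cKO libraries exceeded both WT libraries in 8 of 15 fibroblast and 8 of 10 pericyte markers. The same held for 7 of 11 endothelial and 10 of 12 leukocyte markers, beside 22.6% of all tested genes. None of these markers was at 0. Summed fibroblast markers were 32830 CPM (WT) and 35694 (cKO) at the earlier time, then 28520 and 52925. The sign of the first of these differences depended on Gsn, an actin-severing protein. Gsn had 4235 CPM in WT and 13620 in cKO at 10 days, and 9363 and 10361 at 5 weeks. Without Gsn the sums turned to 28595 (WT) and 22075 (cKO) at 10 days and stayed in order at 5 weeks, at 19158 and 42564. Col3a1 went the other way at 10 days, with 13514 (WT) and 7365 CPM (cKO), then 7054 and 19638. Without Col3a1 the sums at 10 days were 19316 (WT) and 28330 (cKO). By single genes, 4 of 15 fibroblast markers were lower in cKO at 10 days against 1 of 15 at 5 weeks. With Gsn left out, 10 of 14 were still higher in cKO at 10 days. At 10 days and 5 weeks in turn, leukocyte markers summed to 86.4 and 60.3 (WT) against 134 and 156 (cKO). Pericyte markers summed to 616 and 720 against 849 and 961 in the same order. Endothelial markers summed to 166 and 203 against 219 and 330. Per unit of Pdgfra, the per-length level of Zeb2 was 0.111 in WT and 0.195 in cKO at 10 days, and 0.195 and 0.266 at 5 weeks, so the order of the genotypes was kept. For Zeb1 the Pdgfra ratio was 0.170 and 0.184, then 0.205 and 0.218. Per unit of the leukocyte gene Ptprc, Zeb2 was 3.36 and 3.16 at 10 days and 4.95 and 2.70 at 5 weeks, so there it was lower in cKO. The part of these cell types in the levels of Zeb2, Zeb1, Twist1, Twist2 and Cdh2 was not tested.

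The miR-200 family is shown because its sites set Zeb1 and Zeb2 apart from most other messages. The mature sequences below are from RefSeq (GRCm38.p6), with the seed (bases 2 to 8) in capitals. They fall into 2 groups by seed, miR-200a with miR-141, and miR-200b with miR-200c and miR-429.
mmu-miR-200a-3p: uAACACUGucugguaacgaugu
mmu-miR-141-3p: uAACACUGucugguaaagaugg
mmu-miR-200b-3p: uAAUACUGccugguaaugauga
mmu-miR-200c-3p: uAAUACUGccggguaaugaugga
mmu-miR-429-3p: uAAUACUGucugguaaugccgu

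The letters that pair with these seeds are CAGTGTT for the first group and CAGTATT for the second, searched on the message strand. The 3′ UTR of the Zeb2 transcript ENSMUST00000176438.8, 4941 bases long in GENCODE M21, held 5 of CAGTATT and 4 of CAGTGTT. The 3′ UTR of Zeb1, 2401 bases long, also held 5 and 4. Of 4094 genes with a 3′ UTR at least as long as that of Zeb1, cut to its length, 1 held as many as 9 matches, which was Zeb1 itself (0.0244%), while 45.3% held at least 1. For Zeb2 the same search found 1 of 821, Zeb2 itself (0.122%), and 68.6% with at least 1. A match is a description of the letters, not a tested site, and the search was added after the values were seen. Examples from the Zeb2 3′ UTR, with the match in capitals, follow for each seed group.
Zeb2 chr2:44988163-44988191, minus strand: ctaccatacatCAGTATTttattattatt
Zeb2 chr2:44988098-44988126, minus strand: ctacagtgcatCAGTATTacgattcctca
Zeb2 chr2:44988347-44988375, minus strand: aaaattttgtaCAGTGTTaaggcctaaaa
Zeb2 chr2:44987815-44987843, minus strand: ccatccttgtaCAGTGTTcagagggtaac

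The mature microRNAs were not measured by these libraries. The rows of their host hairpins held between 0 and 2 counts in the 4 libraries, so no miR-200 level can be set beside the Zeb values. Zeb2 shares 653 exon bases with the antisense gene Zeb2os (14 to 44 counts), and Zeb1 shares 198 with Gm10125 (74 to 218 counts). The sources used here do not give the strand setting of the counting, so reads in those stretches are uncertain.

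Twist1 was the third gene with an unadjusted p under 0.05. Twist1 (ENSMUSG00000035799.6, chr12:33957671-33959829, plus strand) is a factor of mesoderm and cranial mesenchyme, and had 805 counts in WT and 945 in cKO at 10 days, and 1351 and 1247 at 5 weeks. In CPM these were 23.4, 29.7, 17.6 and 36.7. Both cKO libraries were higher than both WT libraries, and the gap was wider at 5 weeks (log2 ratio 1.06) than at 10 days (0.35). Its log2 fold change was 0.71 (SE 0.266, unadjusted p = 0.0404, adjusted p = 0.409 in edgeR). Per unit of Pdgfra its per-length level was 0.259 and 0.303 in WT and cKO at 10 days, and 0.297 and 0.366 at 5 weeks.

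Twist2 (ENSMUSG00000007805.4, chr1:91801461-91848028, plus strand), a factor of dermal fibroblasts, had its wider gap at the earlier time. It had 311 counts in WT and 506 in cKO at 10 days, and 894 and 482 at 5 weeks, or 9.03, 15.9, 11.6 and 14.2 CPM. Its log2 ratio of cKO over WT went from 0.82 at 10 days to 0.29 at 5 weeks, and the fit gave 0.55 (SE 0.285, adjusted p = 0.524). The groups did not overlap, but per unit of Pdgfra the order turned between time points, with 0.0645 in WT and 0.105 in cKO at 10 days against 0.127 and 0.0913 at 5 weeks. Twist2 shares 1477 exon bases with the antisense gene Gm29100, which held 4 to 8 counts.

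The Snail genes did not separate by genotype. Snai1 (ENSMUSG00000042821.7, chr2:167538195-167542814, plus strand), an early and unstable repressor of Cdh1, had 358 counts in WT and 537 in cKO at 10 days, and 589 and 287 at 5 weeks. In CPM these were 10.4, 16.9, 7.66 and 8.45, with the cKO library at 10 days above the other 3. Its fitted difference was a log2 fold change of 0.42 (SE 0.299, adjusted p = 0.648), and it turned to -0.10 when the cKO library at 10 days was left out. Snai2 (ENSMUSG00000022676.7, chr16:14705852-14709385, plus strand), also called Slug and known from mammary basal cells, had 267 counts in WT and 226 in cKO at 10 days, and 825 and 365 at 5 weeks. In CPM these were 7.75, 7.11, 10.7 and 10.8, so the genotypes were nearly level at each time point (log2 ratios of -0.12 and 0.00). The fitted log2 fold change was -0.06 (SE 0.288, adjusted p = 0.959 in edgeR). In these libraries 8 of 10 basal markers were lower in both cKO samples and 1 was higher in both. The shares of all tested genes were 23.3% and 22.6%.

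The promoter of Snai1 is shown because it is the one among the members' windows that carries an E-box. The RefSeq table (GRCm38.p6) gives windows from 250 bases before to 50 after a transcript start for 4 of the 10 genes, Snai1, Twist1, Twist2 and Zeb2, 7 windows in all. CACCTG, read on either strand and a form of the general E-box CANNTG, was found once, in the Snai1 window, beginning 126 bases before the start. The other 6 windows, of which some of Zeb2 overlap each other, held no CANNTG. Among 32851 windows of all genes, 20.2% held CACCTG and 72.3% held CANNTG. The capitals mark the match.
Snai1 chr2:167537945-167538244, plus strand: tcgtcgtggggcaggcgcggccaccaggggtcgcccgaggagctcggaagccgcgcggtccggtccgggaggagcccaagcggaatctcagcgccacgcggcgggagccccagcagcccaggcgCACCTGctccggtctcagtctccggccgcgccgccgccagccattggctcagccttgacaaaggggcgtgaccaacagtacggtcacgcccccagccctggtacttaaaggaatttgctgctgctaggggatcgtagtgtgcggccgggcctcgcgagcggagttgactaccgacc

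The same letters were counted in promoter windows of the 7 gene lists described further on. CACCTG was present in 20.2% of all windows. It was present in 14 of 21 windows (15 genes) of epithelial genes repressed in EMT. Factors that maintain epithelial identity had it in 4 of 8 windows, and other classical cadherins in 3 of 13. It was present in 2 of 18 windows of catenins and adherens junction genes, 1 of 13 of mesenchymal genes, 0 of 9 of other EMT factors and 0 of 16 of corepressors and modulators. Among the marker lists, luminal genes had it in 10 of 16 windows (11 genes) and fibroblast genes in 3 of 13. The other marker lists ran from 0 of 6 (Schwann cell) to 2 of 4 (basal). Some genes have several windows and some stand in more than 1 list, so these counts are not independent. These are counts of letters, and no binding was measured.

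**Figure D3:**
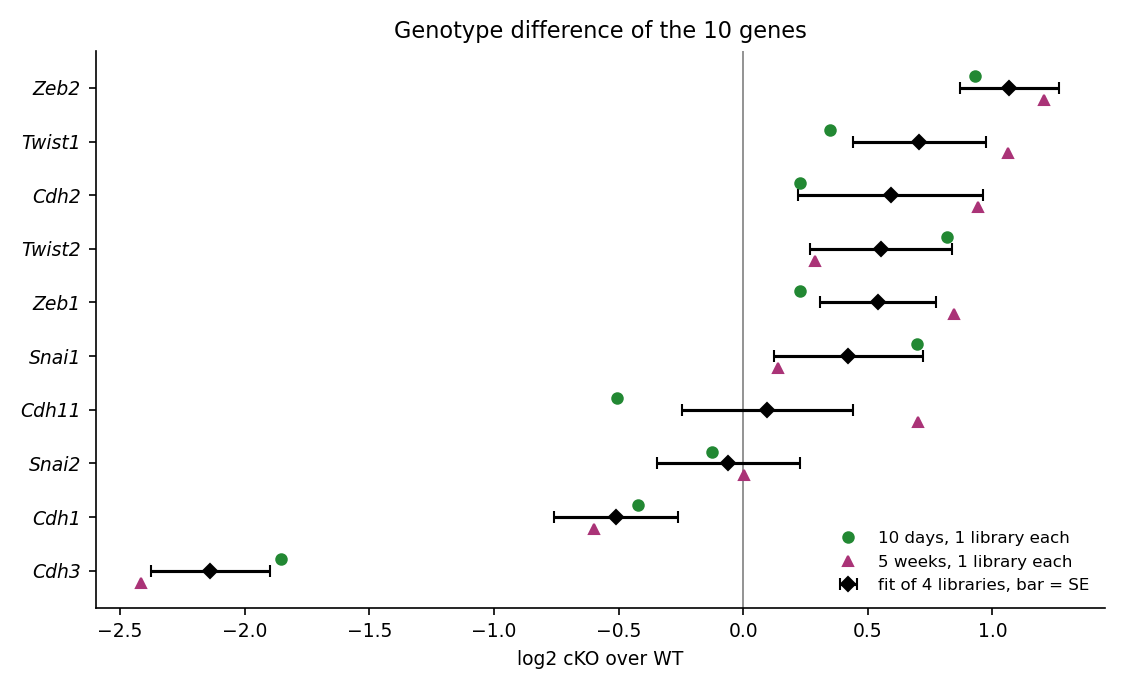
Log2 ratio of cKO over WT (horizontal axis) for the 10 genes, with the fit over 4 libraries as diamonds with SE bars and the ratio at 10 days and at 5 weeks as circles and triangles. Cdh3 lies at -2.14 and Zeb2 at 1.07 with both time points on the same side of 0, while the points of Cdh11 lie on opposite sides (-0.51 and 0.70).

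Levels of the 10 genes can be set in order only per length. Counts per kilobase of the longest coding transcript, scaled to a sum of 1000000 per library, averaged 216 for Cdh1 (171 to 267 over the libraries), 45.0 for Cdh11 (30.8 to 57.1) and 38.7 for Twist1 (22.6 to 53.9). Next came Cdh3 at 26.4 (9.68 to 49.7), Zeb1 at 24.2 (15.6 to 32.1) and Zeb2 at 24.2 (14.9 to 39.1). Snai1 followed at 15.7 (9.91 to 24.9), Twist2 at 11.7 (8.63 to 15.1), Snai2 at 10.4 (8.40 to 12.7) and Cdh2 at 2.39 (1.53 to 3.37). Among neighbours in this order, Cdh1 and Cdh11, and Snai2 and Cdh2, had ranges that did not overlap. All other neighbours overlapped. With all exons of a gene merged as its length, Cdh1 stayed first and Cdh2 last, Twist1 passed Cdh11, and Snai1 moved from place 7 to place 5.

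The 6 factors together amounted to 106 and 83.8 per-length units in WT and to 146 and 164 in cKO, at 10 days and 5 weeks. Twist1 was the most abundant of them in every library, with 27.0% to 32.9% of the sum. The share of Zeb2 was 14.1% in WT and 19.1% in cKO at 10 days, and 17.7% and 23.9% at 5 weeks. Snai2 took 8.76% and 5.74% at 10 days, and 13.3% and 7.77% at 5 weeks. Its share was lower in cKO while its own level was nearly level between genotypes.

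The comparison of time points asked whether the genes differ between 5 weeks and 10 days with genotype as a term. In edgeR 0 of the 10 genes passed, beside 0.0634% of all tested genes, and 0 of 10 had an unadjusted p under 0.05, beside 5.35%. DESeq2 and limma-voom also called 0 of 10, beside 1.01% and 0.206% of all tested genes. At an unadjusted p under 0.05 they had 0 of 10, beside 4.96% and 6.4%. Snai1 was lower at 5 weeks in both genotypes (log2 fold change -0.72, SE 0.300, unadjusted p = 0.0570, adjusted p = 0.947). Snai2 was higher at 5 weeks in both (0.53, SE 0.288, unadjusted p = 0.118, adjusted p rounding to 1). Libraries of the time points did not overlap for these 2 genes, beside 26.8% of all tested genes, 13.5% lower and 13.3% higher at 5 weeks. For the other 8 genes the fitted log2 change with time lay between -0.11 (Cdh1) and 0.41 (Cdh3).

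For each gene, the genes with the most similar pattern were sought among 9808 tested genes with a mean of at least 10 CPM. Likeness was the Euclidean distance between log2 CPM profiles centred on their means, over 4 libraries only. Nearest to Cdh3 were Gpt (distance 0.37), Megf6 (0.43) and Lmo1 (0.45), all farther than the nearest genes of the other members. Nearest to Zeb2 were Fam198b (0.07), Zfhx4 (0.11) and Man1a (0.12). Twist1 was followed by Reps2 (0.10), Zbtb20 (0.12) and Angpt1 (0.12), and Zeb1 by Dmxl1 (0.05), Zfp9 (0.06) and Fndc3b (0.08). Twist2 lay near Fos (0.06), an immediate early gene, Adgre5 (0.08) and Thrb (0.08). Snai1 lay near Gadd45b (0.14), Syne3 (0.16) and Adgrg2 (0.18), and Snai2 near Abracl (0.05), Nudcd2 (0.07) and Elovl6 (0.08). Among the cadherins, Cdh1 lay near Gtpbp4 (0.02), Zfp362 (0.03) and Znhit6 (0.03), Cdh2 near Dpysl2 (0.04), Slc30a4 (0.06) and Bmper (0.07), and Cdh11 near Slc29a3 (0.05), Heph (0.05) and Armcx1 (0.06). With 4 points per gene, such short distances are a description of these libraries.

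Other genes of the pathway were followed in 7 lists. Among the other classical cadherins, 8 of 14 had enough counts to be tested. Cdh19, a cadherin of neural crest and glia, had 0.435 and 0.820 CPM in the WT libraries against 1.54 and 2.86 in the cKO ones (1.81 as a log2 fold change, adjusted p = 0.287), and Cdh9 had 2.09 and 3.42 against 7.27 and 7.36 CPM (1.44, adjusted p = 0.296). These were 2 of 8 with an unadjusted p under 0.05 and a higher level, beside 5.8% of all tested genes in that direction. Cdh5, the cadherin of endothelium, chosen after its values were seen, had 24.8 and 26.0 CPM in the WT libraries and 28.3 and 43.7 in the cKO ones. The 6 not tested, Cdh7, Cdh8, Cdh12, Cdh15, Cdh20 and Cdh22, had between 0 and 14 counts in each library.

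Among catenins and other adherens junction genes, 0 of 15 tested passed the adjusted threshold, and 3 lower and 1 higher had an unadjusted p under 0.05, beside 5.8% of all tested genes in each direction. Nectin1, an immunoglobulin-like adhesion molecule, had 139 and 149 CPM in the WT libraries and 52.6 and 61.2 in the cKO ones (log2 fold change -1.34, adjusted p = 0.146). Jup (plakoglobin) was at 421 and 716 against 317 and 255 CPM (-0.95, adjusted p = 0.401). The core catenins that bind cadherin tails stayed closer between genotypes, with log2 fold changes of -0.23 for Ctnnb1, -0.18 for Ctnna1 and -0.19 for Ctnnd1, chosen after their values were seen. Plekha7, a junction adaptor, had -0.52, and Nectin3 had 0.74.

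Factors that maintain epithelial identity were the list farthest from the median of all genes among these 7. Of 12 tested, 7 were lower in cKO with an unadjusted p under 0.05, beside 5.8% of all tested genes in that direction, 0 passed the adjusted threshold, and the median log2 fold change was -0.68. Ehf, an ETS factor of epithelia, had 147 and 176 CPM in the WT libraries and 47.1 and 64.6 in the cKO ones (log2 fold change -1.54, adjusted p = 0.123). Grhl3, a grainyhead factor of epidermal barrier, was at 6.36 and 21.7 against 1.13 and 1.27 CPM (-3.31, adjusted p = 0.191). Ovol1, a zinc-finger repressor known to act against Zeb1, was at 31.7 and 48.2 against 12.3 and 9.19 CPM (-1.88, adjusted p = 0.215), and Klf5 at 122 and 162 against 70.1 and 68.9 CPM (-1.02, adjusted p = 0.237). Several of these factors are also expressed in squamous and basal cells, whose markers differed between genotypes as given above, and their part was not tested.

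Epithelial genes known to be repressed in EMT had a median log2 fold change of -0.34 over 22 genes (below 0 in 19 of them), with 4 lower at an unadjusted p under 0.05, beside 5.8% of all tested genes, and 0 passing. Among them were Dsp (-1.81) and Pkp3 (-1.08), both of desmosomes, and the polarity gene Llgl2 (-0.59). Dsp had 388 and 1239 CPM in the WT libraries and 196 and 199 CPM in the cKO ones, a pattern like that of Cdh3 in which WT at 5 weeks was the highest. Mesenchymal genes known to be induced in EMT had a median of 0.47 over 18 genes, with 2 higher at an unadjusted p under 0.05 and 0 passing. These 2 of 18 stand beside 5.8% of all tested genes in that direction. They were the collagen crosslinker Lox (162 and 115 CPM in WT, 292 and 242 CPM in cKO, 0.96) and the matrix protein Tnc (20.2 and 70.5 against 85.6 and 105 CPM, 1.33). The mesenchymal list had a median log2 ratio of 0.15 at 10 days and 0.99 at 5 weeks. Its log2 fold changes were above 0 in 16 of 18 genes, beside 9353 of 18917 tested genes.

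**Figure D4:**
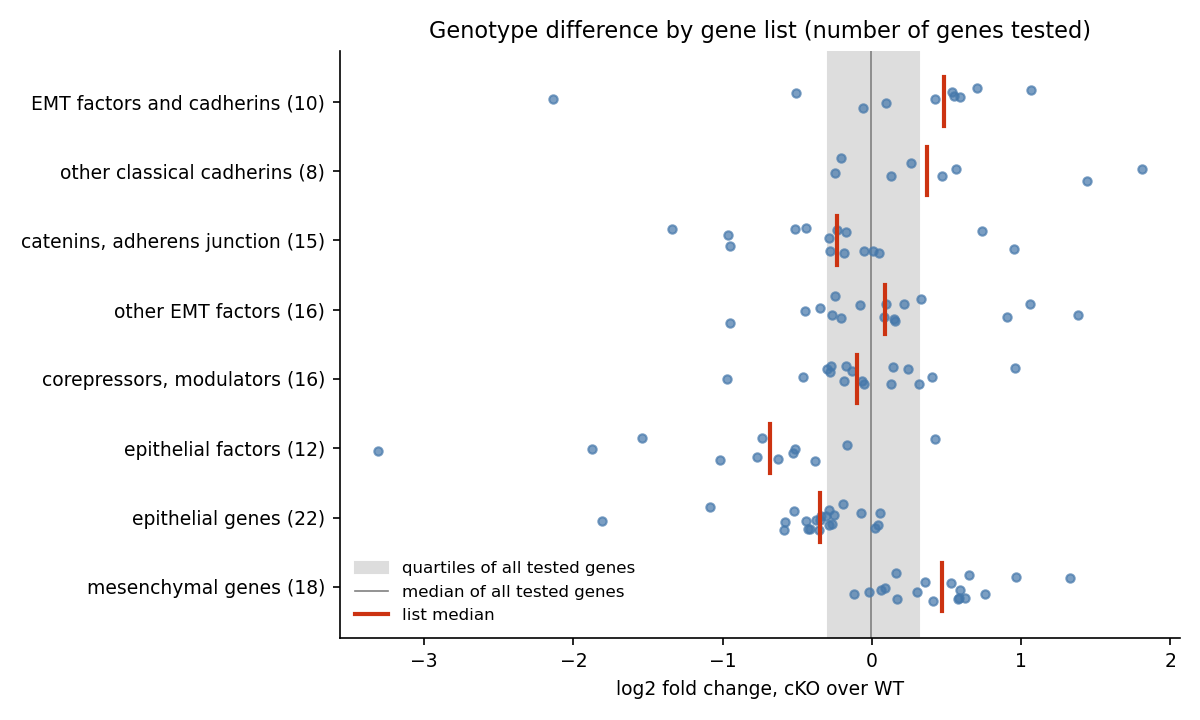
Log2 fold change of cKO over WT (horizontal axis) for each tested gene of the 10 members and of 7 related lists, 1 point per gene, with list medians as red lines and the quartiles of all tested genes as the grey band. The medians run from -0.68 for epithelial factors to 0.48 for the EMT factors and cadherins, around a median of -0.01 for all tested genes.

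Among 16 other EMT transcription factors, Prrx1 alone had an unadjusted p under 0.05, 1 of 16 beside 11.6% of all tested genes. This homeobox factor of mesenchyme had 41.8 and 71.7 CPM in the WT libraries and 113 and 179 CPM in the cKO libraries. Its log2 fold change was 1.38 (SE 0.194, adjusted p = 0.137 in edgeR). Its values therefore differed in the same order as those of Zeb2. The list median was 0.09. Among 16 corepressors and modulators, Ajuba, a LIM protein that binds Snail, was lower (-0.97, adjusted p = 0.331) and Id3, an inhibitor of helix-loop-helix factors, was higher (0.96, adjusted p = 0.386), with a list median of -0.10. These 2 of 16 lie beside the same 11.6%. No gene of the 7 lists passed the adjusted threshold in edgeR.

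**Figure D5:**
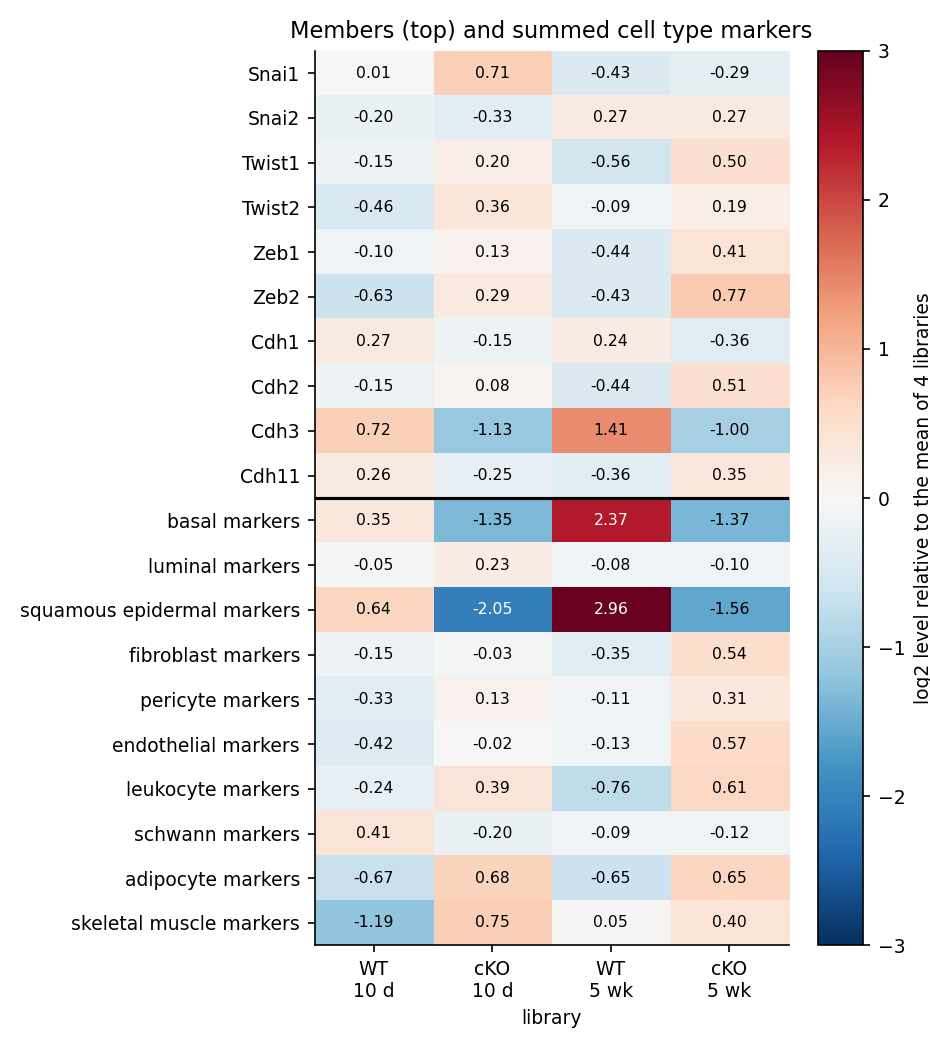
Log2 level relative to the mean of the 4 libraries (colour, from -3 to 3, with the value printed in each cell) for the 10 genes above the line and for the summed CPM of 10 cell type marker lists below it, in each library. Cdh3 is above its mean in both WT libraries (0.72 and 1.41). So are the basal (0.35 and 2.37) and squamous epidermal sums (0.64 and 2.96). Zeb2 is below its mean there (-0.63 and -0.43). So are the leukocyte (-0.24 and -0.76), adipocyte (-0.67 and -0.65), endothelial (-0.42 and -0.13) and pericyte sums (-0.33 and -0.11). The fibroblast (-0.15 and -0.35) and luminal sums (-0.05 and -0.08) are also below their means there.

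The remaining marker lists describe the mixture further. Adipocyte markers summed to 601 and 607 CPM (WT) against 1526 and 1494 (cKO), although the cKO libraries were unlike. The sum is mostly Lpl (449 and 420 CPM in WT, 602 and 1078 in cKO) and Fabp4 (93.7 and 116, then 262 and 241), and the median log2 ratio of the 9 markers was 3.39 at 10 days and 0.50 at 5 weeks. Schwann cell markers summed to 231 to 352 CPM, led by Pmp22 (85.5 to 133) and Sox10 (48.8 to 189), and skeletal muscle markers to 3.05 to 11.7 CPM, led by Mb (1.19 to 3.06) and Tnnt3 (0.813 to 2.39). The leading genes of the lists given above spanned wide ranges over the 4 libraries. Krt8 ran from 2398 to 3429 CPM and Krt18 from 1342 to 1947, while Krt6a ran from 89.0 to 2471 and Sprr2a2 from 0.535 to 469. Notch3 ran from 223 to 270 CPM, Pdgfrb from 195 to 290, Vwf from 50.6 to 73.4, Tek from 18.8 to 78.3, Lyz2 from 8.29 to 36.2 and Ptprc from 7.26 to 30.7. None of the adipocyte, Schwann cell or muscle markers was at 0 in any library, and their part in the members' values was not tested.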

How the data were processed

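The deposited table holds the authors' estimated counts per gene, as whole numbers, with a column for each library and 0 for other samples. Per the submitters' processing notes, the tool list holds Salmon and the build list GRCm38, without roles or versions, and the authors' annotation and strand setting are not given in the sources used here. Salmon shares ambiguous reads among transcripts by a model. All 54393 identifiers matched GENCODE M21, and 0 rows lacked a gene name. Groups come from the genotype and time labels. Genes were filtered with filterByExpr (minimum count 10), scaled by TMM, and modelled with edgeR 4.0.16 in R 4.3.3 (glmQLFit, robust) on time point plus genotype, with 1 residual degree of freedom. The F test was adjusted by Benjamini-Hochberg over 18917 genes, with a threshold of 0.05. SE was computed as |log2 fold change| over the root of F. Ratios at a single time point came from log2 CPM (prior count 2) and were not tested. The fit was tested on simulated data. DESeq2 1.42.0 and limma-voom (limma 3.58.1), other scalings, no filter, no time term and leaving out each library were alternatives. Libraries of 1 genotype were not copies (chi-square over its degrees of freedom: 204 for WT, 102 for cKO).

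The 10 genes, 7 pathway lists and 10 marker lists were chosen with earlier results of these data known. Named genes were the 10 members, the called genes of each pathway list, or else up to 4 with the smallest unadjusted p under 0.05, the sums of marker lists with their 2 leading genes, and the 3 genes nearest to each member. Other genes named (core catenins, Cdh5, Cfd, Plin4, and the marker genes used in ratios) were chosen after their values were seen, and 1 gene that the rule names is not reported here. Protein sequences were not analysed here. Promoters of Snai2, Zeb1, Cdh1, Cdh2, Cdh3 and Cdh11 were not analysed here.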

Additional observations from a re-analysis of the deposited data

Results flagged for a closer look

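Cdh11 differed between genotypes in opposite directions at the 2 time points. Its log2 ratio of cKO over WT was -0.51 at 10 days (95% counting interval -0.58 to -0.44) and 0.70 at 5 weeks (0.65 to 0.76), a difference of 1.21. With 1 library per genotype and time point this difference was not tested, and the intervals cover counting error only.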

How the results depend on the processing

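The genotype comparison called 11 genes as reported. It called 5 with DESeq2 size factors, 3 with upper-quartile factors, 1235 with no filter, 512 in DESeq2, 29 in limma-voom and 0 without the time term (2182 at an unadjusted p under 0.05). Leaving out 1 library, which also drops the time term and assumes that a lone library varies like the others, gave 0 to 60, with 60 without WT at 10 days, 1 without WT at 5 weeks and 0 without either cKO library. The time comparison called 12 genes, 638 with no filter, 192 in DESeq2, 39 in limma-voom, 1 without the genotype term and 0 to 18 with a library left out (18 without WT at 10 days, 13 without cKO at 10 days, 0 without either library of 5 weeks). The cause was not tested. Across all 10 alternatives, Cdh3, Zeb2, Zeb1, Twist1, Twist2, Cdh1 and Cdh2 kept the sign of their genotype difference.

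Leaving out a library turned the sign of the genotype difference in Snai1 (-0.10 to 0.88), Snai2 (-0.40 to 0.21) and Cdh11 (-0.26 to 0.43). In the time comparison a left-out library also drops the genotype term, which leaves genotype uneven between the time points. Sign turns there cannot be told apart from the genotype difference. They occurred in Twist1 (-0.61 to 0.47), Twist2 (-0.30 to 0.48), Zeb1 (-0.48 to 0.39) and Zeb2 (-0.35 to 0.90). They also occurred in Cdh1 (-0.43 to 0.15), Cdh2 (-0.43 to 0.54), Cdh3 (-1.08 to 1.80) and Cdh11 (-0.41 to 0.32). With no library left out but without the genotype term, the time difference turned to 0.030 in Twist1, 0.025 in Zeb1 and 0.0095 in Cdh11. For Cdh11 it was 0.0032 with no filter and 0.0050 in limma-voom. The labels give no replicate numbers, so libraries were matched by time point alone, which serves as the block in the main fit. Depth limits Cdh2 most, with 149 to 272 counts. Using merged exons as length, an alternative chosen after seeing the data, moved 7 of 10 genes in the order of levels. Without Gsn, also left out after seeing the data, the log2 ratio of summed fibroblast markers at 10 days turned from 0.12 to -0.37. Without Col3a1 instead, that ratio was 0.55. Scaling moved the median of all genes by less than 0.1 log2 units.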
